A study of Mus musculus with 3 samples.

Results

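The 9 noncoding RNAs described here, the nuclear RNAs Malat1 and Neat1 and the 7 small nucleolar RNA (snoRNA) host RNAs Gas5, Snhg1, Snhg3, Snhg5, Snhg6, Snhg8 and Snhg12, were followed across endothelial cells of 3 genotypes. They were chosen by name, and all 9 were found among the 23397 genes of the deposited files, each as 1 entry. The cells came from mouse embryonic stem (ES) cell lines: a Gata1 and Gata2 double knockout (labelled Gata12KO), a knockout of Scl (SclKO; the gene is now called Tal1) and wild type (WT). All lines were kept in serum with leukaemia inhibitory factor, passed 2 days in a pre-differentiation medium, and were then grown for 4.75 days as embryoid bodies, floating aggregates in which ES cells differentiate. Cells positive for Tie2 and CD31, surface proteins of endothelium, and negative for CD41, a protein of early blood cells, were sorted, and total RNA was sequenced as 50 nt reads. There was 1 library per genotype and no replicate, so every difference describes these 3 libraries and has no replicate check or test; the number of clones behind each line is not stated in the labels. In such bulk samples, fewer cells of a type and less RNA per cell cannot be told apart.

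Implied depth was 50.3M fragments in the library labelled Gata12KO, 28.3M in SclKO and 31.6M in WT. Tal1 stood at 1.59 FPKM (fragments per kilobase of transcript, scaled to the mapped fragments of its library) in SclKO, against 51.0 FPKM in WT. Gata1 and Gata2 stood at 5.66 and 44.9 FPKM in the library labelled Gata12KO, against 4.64 and 12.05 FPKM in WT, so the RNA levels do not show that label's knockout, and it is not known here which exons the deletions removed. All 14 endothelial markers reached 1 FPKM in every library. Of 12 blood markers, 6 reached 1 FPKM in the library labelled Gata12KO, 1 in SclKO and 10 in WT, with summed levels of 41.5, 7.17 and 227 FPKM in that order. Summed mesenchyme markers stood at 39.9, 181 and 94.2 FPKM in the same order, with all 9 above 1 FPKM in each. Summed endothelial markers were 870, 366 and 728 FPKM. These marker sums move with the genotypes in every comparison given here, and their part in the noncoding RNA values was not tested.

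Malat1 is a long, mostly unspliced RNA held in nuclear speckles, the compartments where splicing factors gather, and Neat1 is the scaffold on which paraspeckles are built. The snoRNA hosts work differently: small RNAs are cut from their introns and guide the chemical modification of ribosomal RNA, while many of the spliced host RNAs carry no long reading frame and are broken down in the cytoplasm by nonsense-mediated decay. Many hosts start transcription at a C followed by pyrimidines, the 5' terminal oligopyrimidine (TOP) start also used by ribosomal protein genes, whose translation follows nutrient supply through the mTOR kinase.

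The starts of the hosts are shown because the TOP start is a sequence feature that many hosts are known to share. Each stretch runs 5′ to 3′ on the transcript strand, from 40 bases before the annotated start to 30 bases from it on, and capitals mark a C followed by at least 4 pyrimidines that begins within 10 bases of the start. The windows are from the RefSeq promoters of GRCm38.p6 at chr1:161035126-161035195 on the forward strand for Gas5, chr4:132308638-132308707 forward for Snhg12, chr3:123508307-123508376 reverse for Snhg8, chr4:132353657-132353726 reverse for Snhg3, chr9:88522868-88522937 reverse for Snhg5 and chr19:8723447-8723516 forward for Snhg1.
Gas5: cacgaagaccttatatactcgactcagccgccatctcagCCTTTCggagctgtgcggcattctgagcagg
Snhg12: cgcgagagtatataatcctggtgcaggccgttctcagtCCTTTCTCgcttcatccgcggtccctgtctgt
Snhg8: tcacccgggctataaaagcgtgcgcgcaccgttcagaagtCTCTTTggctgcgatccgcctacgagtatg
Snhg3: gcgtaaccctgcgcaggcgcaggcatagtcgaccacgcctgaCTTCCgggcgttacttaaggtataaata
Snhg5: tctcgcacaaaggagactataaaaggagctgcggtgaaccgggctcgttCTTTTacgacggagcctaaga
Snhg1: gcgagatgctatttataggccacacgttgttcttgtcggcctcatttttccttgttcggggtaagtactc
The promoter table held 7 of the 9 genes in 8 start windows, 2 of them for Gas5. A tract was found in 5 of the 8 windows, each of a different host, against 30.7% of 32851 promoters. The other Gas5 window, at chr1:161034561-161034630, had none. Snhg1 had none that began within those bases, and neither did Malat1. The annotated start can lie a few bases from the start used in these cells. The sequence TATAAA stood on the transcript strand in the 40 bases before the start of Snhg5 and Snhg8, against 2.31% of promoters. CAGCTG, an E-box sequence of the kind Tal1 dimers bind, was found in the 300 bases of the Malat1 promoter, searched on both strands, and in no other of the 7, against 16.3% of promoters. AGATAA, a sequence GATA factors bind, was in none, against 11.2%. These 3 sequences were picked after the windows had been seen, and a match of letters is no evidence of binding.

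Snhg1 and Malat1 stood at the top of the set in every library and Neat1 at the bottom. Snhg1, a host of 10 exons and 476 nt whose snoRNAs include Snord22, had 273 FPKM in the library labelled Gata12KO, 245 FPKM in SclKO and 334 FPKM in WT. It ranked 86, 136 and 105 among the 10992 expressed genes with transcripts of at least 300 nt, and made up 42.6%, 43.5% and 43.6% of the summed FPKM of the 7 hosts. Its share of the hosts was thus nearly the same in the 3 libraries although its level was not.

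Malat1, at chr19:5795690-5802671 on the reverse strand of mm9 (the build of the files), is given as 1 exon of 6982 nt. It had 204.6 FPKM in the library labelled Gata12KO (deposited bounds 203.1 to 206.2), 169.5 FPKM in SclKO (167.6 to 171.4) and 210.3 FPKM in WT (208.4 to 212.3). The bounds span 2 Poisson standard deviations on each side and cover counting error only. They are narrow because Malat1 is long and abundant: it held 70215, 32528 and 45190 fragments in the 3 libraries in that order, or 75.5%, 77.9% and 75.3% of all fragments on the 9 RNAs. None of the 3 intervals touched another, and the SclKO library was the lowest.

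The end of Malat1 is shown because it is unusual among long RNAs. It is not made by polyadenylation: RNase P cuts before a tRNA-like structure, and the new end, an encoded run of A, folds back on 2 U-rich stretches into a triple helix. In the GENCODE transcript on GRCm38, chr19:5795918-5796099 on the reverse strand, capitals mark the encoded run of 12 A, and a U-rich stretch begins 68 bases before it.
Malat1 3′ end: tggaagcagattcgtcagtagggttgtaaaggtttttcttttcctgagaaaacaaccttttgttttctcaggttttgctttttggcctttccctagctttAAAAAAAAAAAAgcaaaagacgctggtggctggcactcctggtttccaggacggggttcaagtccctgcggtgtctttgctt
The annotated transcript runs on for 298 bases after the run of A. Libraries here were made from total RNA with no stated selection for poly(A), and any effect of this end on the Malat1 value was not tested.

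Neat1, at chr19:5842302-5845478, lies 39630 nt from Malat1 on the same strand. The files hold an entry of 3177 nt for its short isoform, while the long isoform that carries paraspeckle assembly was not analysed here. It had 1.74 FPKM in the library labelled Gata12KO (1.53 to 1.96), 1.34 FPKM in SclKO (1.09 to 1.59) and 1.77 FPKM in WT (1.49 to 2.04), on 264, 113 and 167 fragments. All 3 intervals overlapped. Malat1 was 117, 126 and 119 times as high as its neighbour Neat1 in the 3 libraries, per length.

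Gas5, named for its accumulation in growth-arrested cells and known as a decoy of the glucocorticoid receptor, had a pattern of its own among the 9. It had 96.3 FPKM in the library labelled Gata12KO (94.5 to 98.1), 55.5 FPKM in SclKO (53.7 to 57.3) and 80.6 FPKM in WT (78.5 to 82.7). Gas5 was the only one of the 9 with its highest level in the library labelled Gata12KO. The deposited model, at chr1:162965297-162968668 on the forward strand of mm9, has 4 exons and 2554 nt, of which the first exon makes up 93.3%. The GENCODE transcript that carries the same accession holds 5 snoRNA sequences and a microRNA precursor within its exons, while the 25 Gas5 transcripts of that annotation have a median length of 629 nt. The Gas5 value therefore pools spliced RNA with any RNA that keeps its introns, and these cannot be told apart in it.

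Snhg5, the host of Snord50, had 74.2 FPKM in the library labelled Gata12KO (71.6 to 76.9), 78.4 FPKM in SclKO (74.7 to 82.1) and 112 FPKM in WT (108 to 116). Both mutant libraries lay below WT with separate bounds, and their own bounds overlapped. Snhg12, whose introns hold Snord99 and 3 H/ACA snoRNAs, had 66.3 FPKM (62.8 to 69.7), 59.1 FPKM (54.6 to 63.6) and 80.5 FPKM (75.5 to 85.4) in the libraries labelled Gata12KO, SclKO and WT. It followed the same pattern, with WT apart from both.

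Snhg6, the host of Snord87, had 58.7 FPKM in the library labelled Gata12KO (54.2 to 63.1), 52.9 FPKM in SclKO (46.9 to 58.9) and 65.4 FPKM in WT (59.3 to 71.5). SclKO and WT were separate by a margin under 1 FPKM, and the library labelled Gata12KO overlapped both. Snhg3, the host of the Snora73 (U17) RNAs, had 41.7 FPKM in the library labelled Gata12KO (38.2 to 45.2), 49.6 FPKM in SclKO (44.2 to 55.01) and 61.8 FPKM in WT (56.2 to 67.4). Only WT stood apart, above both mutant libraries.

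Snhg8, given as 1 exon of 785 nt that contains Snora24, was the lowest host in every library. It had 30.8 FPKM in the library labelled Gata12KO (28.8 to 32.8), 22.9 FPKM in SclKO (20.5 to 25.2) and 33.0 FPKM in WT (30.4 to 35.7). Here SclKO stood apart below the other two libraries, which overlapped.

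In order of level, some neighbours could not be separated by their bounds. These were Snhg12 and Snhg6 in the library labelled Gata12KO, the run from Snhg12 through Gas5 and Snhg6 to Snhg3 in SclKO, and Gas5 with Snhg12 and Snhg6 with Snhg3 in WT. The 7 hosts summed to 641 FPKM in the library labelled Gata12KO, 564 FPKM in SclKO and 768 FPKM in WT.

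**Figure D1:**
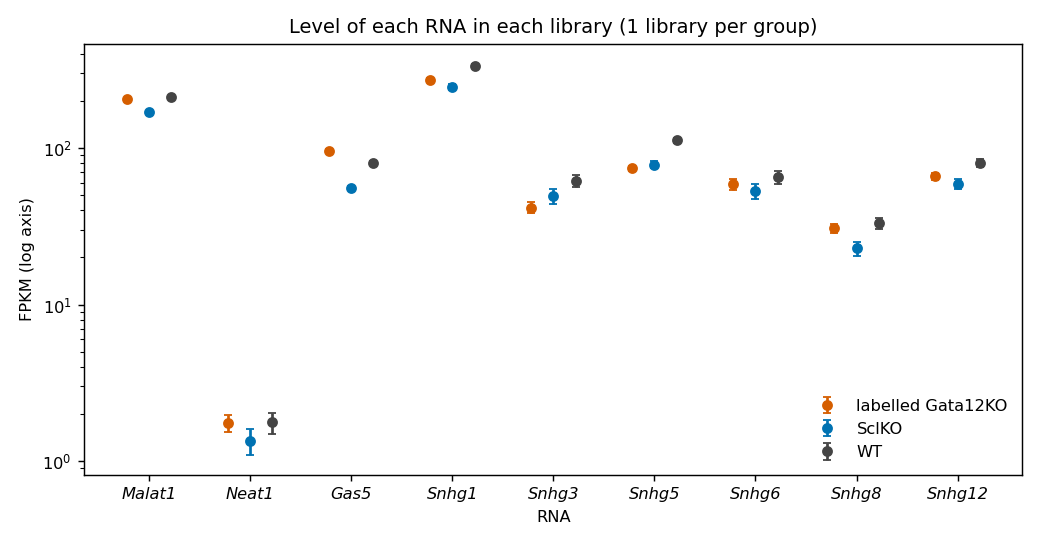
FPKM of the 9 RNAs (log axis) in the library labelled Gata12KO, SclKO and WT, 1 library each, with points for the deposited values and bars for the deposited bounds, which cover counting error only. Snhg1 and Malat1 lie highest and Neat1 lowest in each library, and Gas5 alone has its highest point, 96.3 FPKM, in the library labelled Gata12KO.

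The first comparison asks how the RNAs stand in endothelial cells without Scl, set against WT. All 9 had lower values in SclKO than in WT, and WT was 1.24 to 1.45 times as high. Gas5 had the largest difference: SclKO held 0.689 of its WT level (counting interval 0.661 to 0.718). Snhg8 followed at 0.692 (0.607 to 0.788), Snhg5 at 0.702 (0.661 to 0.745), Snhg1 at 0.733 (0.692 to 0.777) and Snhg12 at 0.734 (0.666 to 0.810). Malat1 at 0.806 (0.794 to 0.818), Snhg3 at 0.802 and Snhg6 at 0.809 had the ratios nearest to 1, and Neat1 at 0.759 (0.595 to 0.969) had overlapping bounds.

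None of the 9 reached the size limit, a ratio of at least 2-fold on log2(FPKM + 1) with separate bounds and 1 FPKM or more in some library. By it 4.24% of the 11080 expressed genes were lower and 2.12% higher in SclKO. With separate bounds alone, 8 of the 9 were lower, against 31.6% of expressed genes and 40.1% of those of like length, and 0 were higher, against 26.3%. Bounds are narrowest for abundant RNAs such as these, so this count depends on level as well as on difference. Like length means the 4792 expressed genes with transcripts of 407 to 2554 nt, the range of the 7 hosts. Only Gas5 takes it to 2554 nt, as the other hosts have 407 to 1010 nt. Malat1 and Neat1 are longer than the class. A log2 ratio below 0 was found for 9 of 9, against 53.2% of expressed genes and 64.3% of the length class, and one above 0 for 0 of 9, against 46.7% of expressed genes. The median log2 ratio of the 9 was −0.44, that of all expressed genes −0.03 and that of the length class −0.16. At the lengths of the shorter hosts genes stood lower. With expressed genes ordered by length, the running median was −0.28 at 409 nt and −0.33 at 760 nt.

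**Figure D2:**
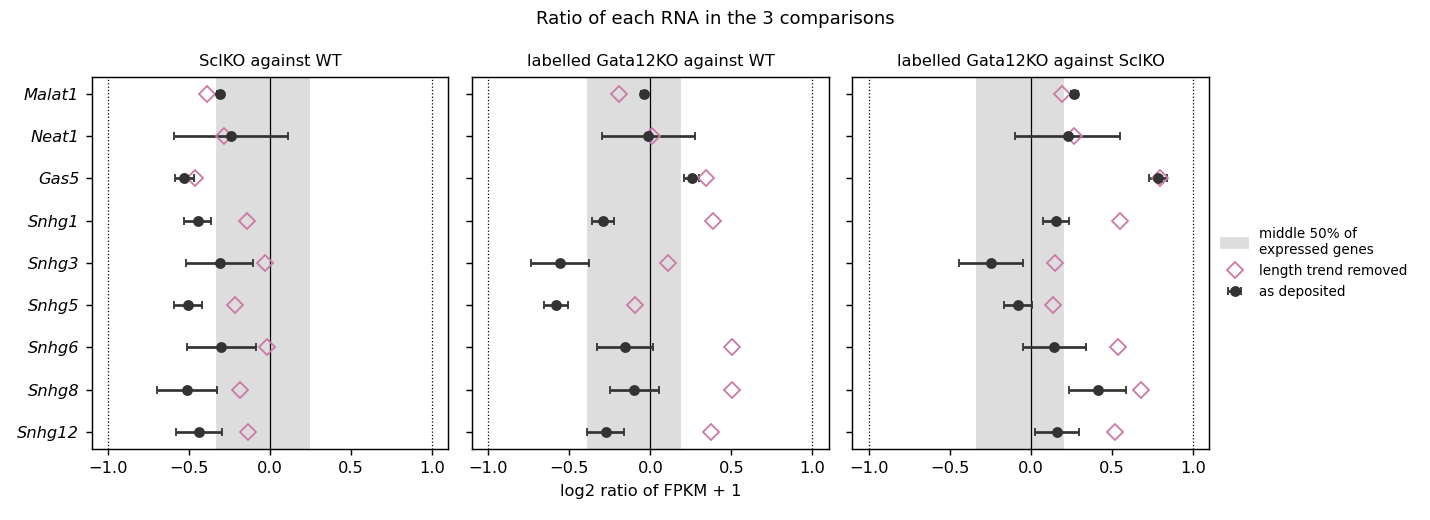
Log2 ratio of FPKM + 1 of each RNA in 3 comparisons, 1 library per genotype. Filled points are the ratios as deposited, and bars the width of the counting interval of the FPKM ratio, set around those points. Open diamonds are the ratio after the length trend is taken away, grey the middle 50% of expressed genes and dotted lines the 2-fold limit. For Neat1, at low FPKM, the point lies nearer 0 than its FPKM ratio, so its bar is not the interval given in the text. All 9 points lie left of 0 in SclKO against WT, and Gas5 lies farthest right, at 0.78, in the library labelled Gata12KO against SclKO.

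Transcript length moved with the ratios across the whole of each library. The fragment-length terms implied by the bounds were 168 nt in the library labelled Gata12KO, 199 nt in SclKO and 186 nt in WT. In SclKO against WT the running median of expressed genes was −0.28 at the length of Snhg6 and 0.08 at that of Malat1. Taking this trend away left all 9 below 0, with a median of −0.19. Gas5 then stood at −0.47 and Malat1 at −0.39, while Snhg3 stood at −0.03 and Snhg6 at −0.02, which is at the trend. The Gas5 value rests on its deposited length of 2554 nt, where the running median was −0.06. At 631 nt, near the median length of its GENCODE transcripts (629 nt), the running median was −0.30. A length of that size would bring Gas5 nearer to the trend. Whether the trend is technical was not tested.

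In the library labelled Gata12KO against WT, the 9 RNAs did not move one way. Snhg5 had 0.664 of its WT level (0.631 to 0.699) and Snhg3 0.674 (0.596 to 0.763), the lowest ratios of the set. Snhg1 had 0.817 (0.779 to 0.857), Snhg12 0.824 (0.760 to 0.893) and Malat1 0.973 (0.961 to 0.985). The difference of Malat1, though outside its counting error, was under 3% of its level. Snhg6 at 0.897, Snhg8 at 0.932 and Neat1 at 0.987 had overlapping bounds. Gas5 alone was higher, at 1.20 times its WT level (1.16 to 1.23).

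By the size limit 0 of the 9 were higher, against 0.767% of expressed genes, and 0 were lower, against 3.75%. Separate bounds gave 5 of 9 lower, where 37.6% of expressed genes and 53.5% of the length class were, and 1 higher, where 24.2% of expressed genes were. A log2 ratio below 0 was found for 8 of 9, against 57.7% of expressed genes and 75.0% of the length class, and one above 0 for 1 of 9, against 42.1% of expressed genes. These shares lie near those of the length class, but that class reaches 2554 nt through Gas5 alone. The other hosts have 407 to 1010 nt, where genes stood lower. The running median of expressed genes by length was −0.66 at 409 nt and −0.50 at 973 nt. The medians were −0.15 for the 9, −0.08 for expressed genes and −0.29 for the length class.

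The length trend was steepest here, and it turned the direction of most hosts. The running median was −0.67 at the length of Snhg1 and 0.15 at that of Malat1. After it was taken away, 2 of the 9 were below 0, Malat1 at −0.19 and Snhg5 at −0.10. Snhg6 then stood at 0.51, Snhg8 at 0.50, Snhg1 at 0.38, Snhg12 at 0.38, Gas5 at 0.34, Snhg3 at 0.11 and Neat1 at 0.01. Gas5 was the one host above 0 both as deposited and after the trend was removed. Its value without the trend again rests on the deposited length of 2554 nt, where the running median was −0.09. At 631 nt the running median was −0.64, so a length of that size would raise the Gas5 value. Scaled to the summed FPKM of each library, all 9 were above 0, but that scaling raised the median of all expressed genes by 0.60. Relative to that median, the median of the 9 was −0.03 under it and −0.07 as deposited.

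**Figure D3:**
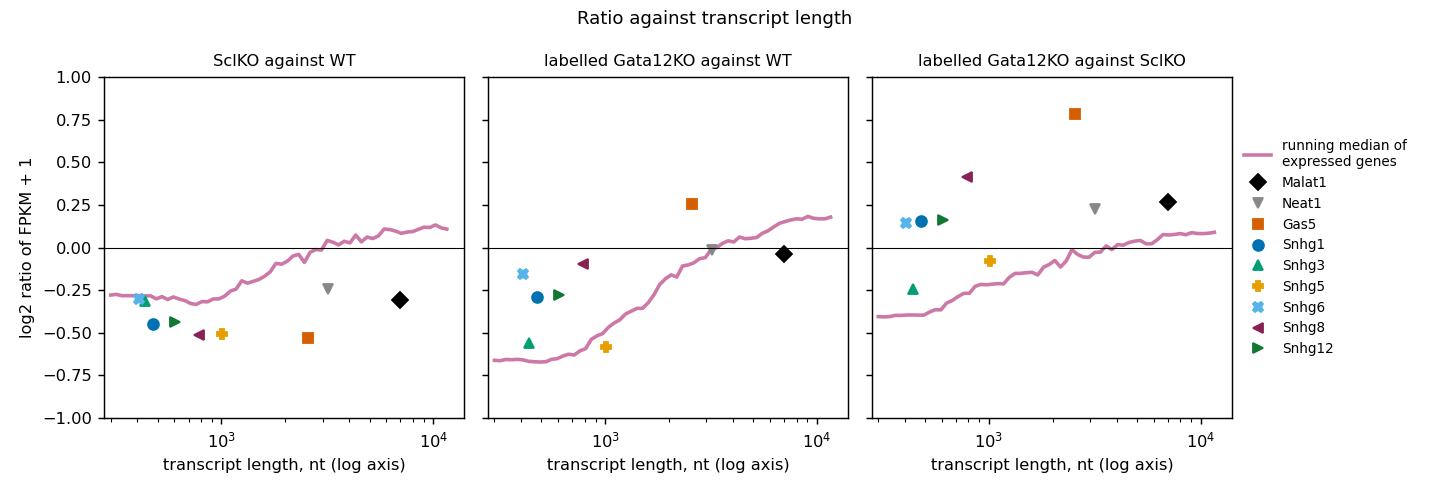
Log2 ratio of FPKM + 1 of the 9 RNAs against transcript length in nt (log axis) in 3 comparisons, 1 library per genotype, with the running median of expressed genes as a line. Short transcripts have lower running medians than long ones in every panel, and in the library labelled Gata12KO against WT the hosts Snhg1, Snhg6, Snhg8 and Snhg12 lie below 0 but above the line.

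Set against each other, the library labelled Gata12KO had more Gas5 than SclKO, at 1.74 times its level (1.67 to 1.80). That was the largest ratio of the 9 in any comparison as deposited, and 94.5% of expressed genes had a lower one. Snhg8 was at 1.35 times (1.19 to 1.52), Malat1 at 1.21 times (1.19 to 1.22) and Snhg1 at 1.11 times (1.05 to 1.18), all 3 with separate bounds. Neat1 at 1.30 (1.04 to 1.63), Snhg12 at 1.12 (1.02 to 1.23) and Snhg3 at 0.840 (0.732 to 0.965) had overlapping bounds. Their counting intervals still left out equal levels, because separate bounds are the stricter rule. Snhg6 at 1.11 (0.968 to 1.27) and Snhg5 at 0.946 (0.892 to 1.004) had overlapping bounds too, and intervals that held equal levels. No RNA of the 9 passed the size limit, against 3.38% of expressed genes higher and 3.75% lower. By separate bounds, 4 of 9 were higher, against 24.8% of expressed genes, and 0 were lower, against 33.5% of expressed genes and 39.5% of the length class. Above 0 were 7 of 9, against 44.2% of expressed genes, and below 0 were 2 of 9, against 55.7% and, in the length class, 63.6%. The medians were 0.16 for the 9 and −0.06 for expressed genes. The 3 comparisons share libraries, so they are not independent of one another. With the length trend removed all 9 were above 0, from 0.14 for Snhg5 to 0.80 for Gas5. For Gas5 the running median was read at its deposited 2554 nt, where it was −0.02. At 631 nt the running median was −0.33, so the size of the Gas5 value depends on the length used. Scaled to the summed FPKM of each library all 9 were again above 0, and Malat1, Gas5 and Snhg8 passed the size limit, at log2 ratios of 1.09, 1.598 and 1.21. That scaling raised the median of all expressed genes by 0.72, to 0.66, and put 19.6% of them past the limit as higher.

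**Figure D4:**
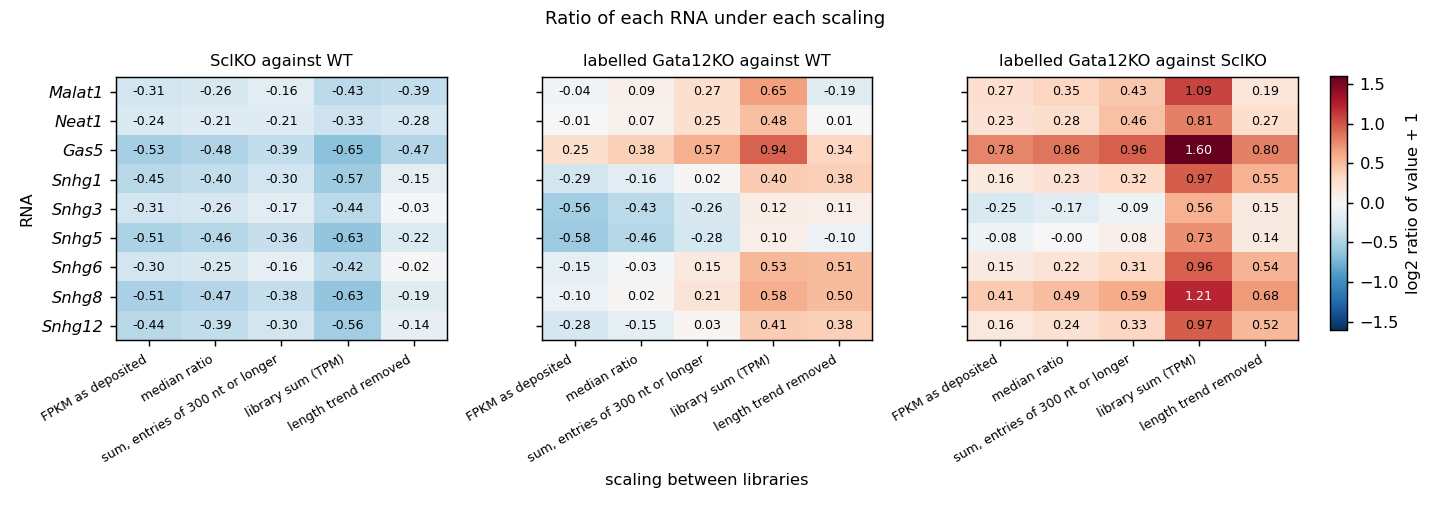
Log2 ratio of FPKM + 1 of each RNA in 3 comparisons under 5 ways of scaling the libraries, 1 library per genotype, with colour and printed values for the ratio. In SclKO against WT all 9 stay below 0 under each scaling, whereas in the library labelled Gata12KO against WT the number below 0 goes from 8 as deposited to 0 when scaled to the summed FPKM.

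The snoRNAs cut from the hosts are shown next, because their entries lie inside the host genes and bear on what a host value counts. Capitals mark the C box (TGATGA) and D box (CTGA) of the C/D snoRNAs, which guide methylation, and the ACA box of the H/ACA snoRNA Snora24, whose class guides pseudouridylation. The sequences are GENCODE genes on GRCm38: Snord47 at chr1:161038082-161038158 forward, Snord99 at chr4:132310691-132310764 forward, Snord87 at chr1:9942463-9942549 reverse and Snora24 at chr3:123507937-123508066 reverse.
Snord47: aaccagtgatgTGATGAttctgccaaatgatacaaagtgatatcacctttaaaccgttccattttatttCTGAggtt
Snord99: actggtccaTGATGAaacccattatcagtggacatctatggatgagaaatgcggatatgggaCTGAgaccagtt
Snord87: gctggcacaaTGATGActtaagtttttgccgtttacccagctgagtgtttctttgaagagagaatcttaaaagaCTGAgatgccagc
Snora24: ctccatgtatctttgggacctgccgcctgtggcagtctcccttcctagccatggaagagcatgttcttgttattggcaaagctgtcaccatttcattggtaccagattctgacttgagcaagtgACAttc
The files hold 9 separate entries inside the hosts, 7 in introns and 2 in exons, all shorter than the implied fragment-length terms, so their FPKM rest on few usable fragments. Snord47, in Gas5, was given at 2002 FPKM (0 to 4313) in the library labelled Gata12KO, 7177 FPKM (0 to 17327) in SclKO and 8330 FPKM (2033 to 14627) in WT. Snord99, in Snhg12, was given at 41282 FPKM (17448 to 65116), 60542 FPKM (0 to 130451) and 67631 FPKM (26848 to 108413) in the same order. All bounds of each snoRNA overlapped, and no order can be read from them.

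Snord22, in Snhg1, stood at 53.8, 121 and 83.5 FPKM in the libraries labelled Gata12KO, SclKO and WT, also with overlapping bounds. Snora44, in Snhg12, stood at 127, 123 and 139 FPKM. Snord87, in Snhg6, was listed at 0 in both mutant libraries and at 436 FPKM (0 to 1308) in WT. Snora24, in the exon of Snhg8, and an unnamed entry in the first exon of Gas5 were listed at or near 0 in all 3 libraries, with the host's own entry covering the same bases. Snora61 was listed at 0 in each, and Snora16a at 0 in the library labelled Gata12KO, 9.94 FPKM in SclKO and 7.14 FPKM in WT with a lower bound of 0.

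The protein-coding neighbours of the 9 RNAs gave no call in any comparison, and none overlapped an RNA of the set. Mcmdc2, Ppp1r42, Prss12, Ndst3 and Rab42 stayed below 1 FPKM in every library, so the rule could not call them. Calls in 1 direction took in 0.767% to 4.24% of expressed genes, so their absence among so few neighbours says little. Slc3a2, a subunit of amino acid transporters that starts 117 nt from Snhg1 on the other strand, had 52.8 FPKM in the library labelled Gata12KO, 77.2 FPKM in SclKO and 59.6 FPKM in WT. It was highest in SclKO, where Snhg1 was lowest. Rcc1, the nucleotide exchange factor of Ran, 6182 nt from Snhg3, had 20.6, 23.7 and 15.4 FPKM in the same order, with WT lowest where Snhg3 was highest. Trnau1ap, 738 nt from Snhg12, had 17.0, 15.9 and 23.5 FPKM and was highest in WT, as Snhg12 was. Zbtb37, 906 nt from Gas5 on the other strand, had 1.40, 1.13 and 0.839 FPKM. Frmd8, next to Neat1, had 12.9, 10.1 and 13.1 FPKM, lowest in SclKO as Neat1 was.

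Among 13 other expressed noncoding snoRNA hosts, 0 were higher and 1 was lower in SclKO than in WT by the size limit. Of all expressed genes, 2.12% were higher and 4.24% lower. The median log2 ratio of these hosts was −0.15, against −0.03 for expressed genes. Their median was −0.26 once the trend with length was taken away, against −0.19 for the 9. The lower one was Epb41l4aos, at 113 FPKM in SclKO and 239 FPKM in WT, a log2 ratio of −1.07. In the library labelled Gata12KO against WT 3 were lower and 0 higher, against 3.75% and 0.767% of expressed genes. The median of these hosts was −0.34. With the length trend removed their median was −0.21, while that of the 9 was 0.34, of the other sign. Snhg20 had 17.1 FPKM, against 50.9 FPKM in WT, Epb41l4aos 100 FPKM, against 239 FPKM, and Snhg18 2.28 FPKM, against 6.44 FPKM. None of these 4 ratios reached 2-fold after the length trend was removed. In the library labelled Gata12KO against SclKO 1 of these hosts, Snhg18, was lower and 0 were higher, against 3.75% and 3.38% of expressed genes. Its log2 ratio was −1.08, and −0.93 with the length trend removed. The median of these other hosts was −0.13, against 0.16 for the 9. With the length trend removed the 2 medians were 0.08 and 0.52. Dancr, which also hosts a snoRNA, had 12.6 FPKM in the library labelled Gata12KO, 11.9 FPKM in SclKO and 23.6 FPKM in WT and was not past the limit.

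Of 14 other expressed long noncoding RNAs, 3 were higher and 1 lower in SclKO than in WT, against 2.12% and 4.24% of expressed genes. Their median was 0.11, which is the other sign from the 9. The higher ones were Meg3, Rian and Mirg of the imprinted Dlk1-Dio3 cluster, and the lower one was the imprinted Peg13, at 1.03 FPKM in SclKO and 4.36 FPKM in WT. In the library labelled Gata12KO against WT, 3 of these RNAs were lower and 0 higher, against 3.75% and 0.767% of expressed genes. Their median was −0.26. In that library against SclKO 4 were lower, Meg3, Airn, Rian and Mirg, and 0 higher, against 3.75% and 3.38%. The median there was −0.24.

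The proteins that act on these RNAs gave few calls. The lists held 15 snoRNP proteins and assembly factors, 14 paraspeckle proteins, 13 nuclear speckle proteins and 13 factors of nonsense-mediated decay. None was past the size limit in any comparison, where calls in 1 direction took in 0.767% to 4.24% of expressed genes. The medians in SclKO against WT were 0.08, 0.04, 0.04 and 0.11 in that order, against −0.44 for the 9 RNAs. With the length trend removed they were 0.20, 0.03, 0.04 and 0.05, against −0.19. In the library labelled Gata12KO against WT the medians as deposited were −0.15, 0.16, −0.05 and −0.01, against −0.15. In that library against SclKO they were −0.18, −0.09, −0.07 and −0.05, against 0.16. Fibrillarin (Fbl), the methyltransferase of C/D snoRNPs, had 40.3 FPKM in SclKO and 28.6 FPKM in WT. Gar1, a core protein of H/ACA snoRNPs, had 24.9 FPKM in SclKO and 14.7 FPKM in WT. In the other direction, the assembly factor Znhit3 had 13.0 FPKM in SclKO and 19.1 FPKM in WT, and Naf1, which assembles H/ACA snoRNPs, had 15.6 FPKM in SclKO and 21.4 FPKM in WT. Of the 15 snoRNP genes, 9 had ratios above 0 in SclKO against WT and 6 below, against 46.7% and 53.2% of expressed genes. In the library labelled Gata12KO against WT 6 were above 0 and 9 below, against 42.1% and 57.7%. In that library against SclKO 3 were above 0 and 12 below, against 44.2% and 55.7%. Upf1, the helicase of nonsense-mediated decay, had 16.8 FPKM in the library labelled Gata12KO, 24.8 FPKM in SclKO and 14.2 FPKM in WT, and its partner Upf3a had 10.1, 19.3 and 14.9 FPKM in the same order. Both were highest in SclKO. Smg5 was lowest there, at 8.77, 8.54 and 10.9 FPKM in the same order. Of the 13 factors of nonsense-mediated decay, 9 had ratios above 0 in SclKO against WT and 4 below, against 46.7% and 53.2% of expressed genes. In the library labelled Gata12KO, 6 were above 0 and 7 below against WT, and the same against SclKO.

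Of 10 factors of the Malat1 3′ end, 0 were past the limit in SclKO against WT, where 2.12% of expressed genes were higher and 4.24% lower. Pop4, a subunit of RNase P, was higher in the library labelled Gata12KO, at 40.8 FPKM, against 15.1 FPKM in SclKO and 13.2 FPKM in WT. As deposited, Malat1 differed by under 3% between that library and WT, and was 1.21 times as high in it as in SclKO. Any link between Pop4 and Malat1 was not tested. Elac2, the nuclease that trims the far side of the tRNA-like structure, had 6.06, 9.42 and 5.10 FPKM in the 3 libraries and was not past the limit.

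Of 15 translation factors and other genes with TOP starts, none was past the limit, against 0.767% to 4.24% of expressed genes in 1 direction. The median was −0.18 in SclKO against WT, −0.33 in the library labelled Gata12KO against WT and −0.23 between the mutant libraries. With the length trend removed these medians were 0.01, −0.12 and −0.13. Tpt1 had 1205 FPKM in the library labelled Gata12KO, 1241 FPKM in SclKO and 2223 FPKM in WT, and its processed copies make the level uncertain. Hnrnpa1, an RNA-binding protein whose level is uncertain for the same reason, had 217 FPKM in the library labelled Gata12KO, 249 FPKM in SclKO and 125 FPKM in WT, the other direction. The ribosomal protein genes, the main TOP class, could not be read: 75 of 79 were listed at 0 in every library and 3 were expressed, with a median of −0.53 in SclKO against WT.

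**Figure D5:**
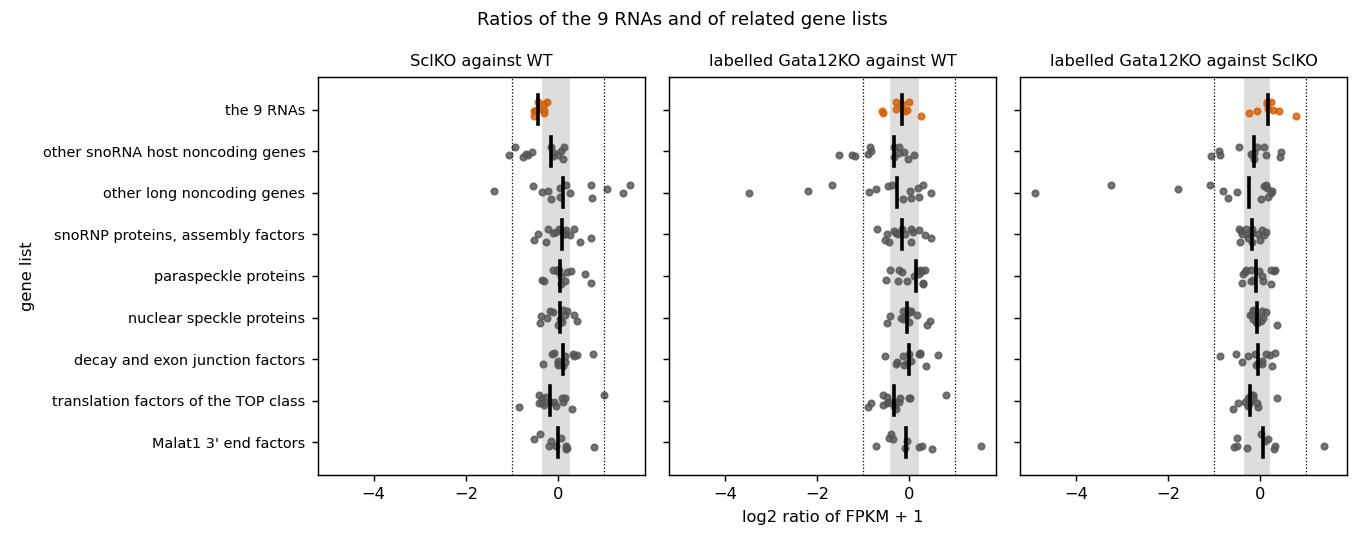
Log2 ratio of FPKM + 1 of each expressed gene in 8 gene lists and the 9 RNAs, in 3 comparisons with 1 library per genotype, with points for genes, bars for list medians and grey for the middle 50% of expressed genes; the ribosomal protein genes are not drawn. In SclKO against WT the median of the 9 is −0.44 and that of the other snoRNA hosts −0.15, and with the length trend removed these are −0.19 and −0.26.

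Likeness of pattern was measured as the distance between log2 ratios to WT, over 3 libraries and 3952 genes of at least 10 FPKM. For Gas5 the nearest was Insig1, a regulator of sterol synthesis, with 66.3 FPKM in the library labelled Gata12KO, 37.9 FPKM in SclKO and 53.6 FPKM in WT. Myo1c and Capn7 followed, and 6 genes lay within a distance of 0.1. For Malat1, 88 genes lay within that distance, led by Chchd1, Ddx50 and Gtf2a2. For Neat1 there were 110, led by Septin10, Rnf111 and Ppp4r3b. With 3 libraries many genes share such a pattern, and that of Malat1 was common. The ratios of Neat1 are shrunk toward 0 by the added 1 FPKM, unlike those of genes of at least 10 FPKM. Its counting interval in SclKO against WT reached 0.35 to each side on the log2 scale, wider than the distance of 0.1. Its near genes therefore do not show how common its pattern was.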

How the data were processed

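RNA of sorted endothelial cells was sequenced in 3 libraries, 1 per genotype, grouped by the labels. The authors deposited, for each of 30123 RefSeq entries, an FPKM value with lower and upper bounds, written by Cufflinks per the file headers. The submitters' processing notes name mm9 and hg19 as builds, and as tools Cuffdiff, Cufflinks 2.0.1 and TopHat2 2.0.4, without roles; the coordinates are on mm9. Whether counting used strand is not stated, so overlapping antisense RNA cannot be told apart. The attribute field that holds the deposited FPKM has other contents too, such as names and coverage.

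Symbols came from the RefSeq table of the reference for 29030 of 29610 accessions and from GENCODE for 173; 407 had none. Gas5 was named through GENCODE. Entries of a gene were summed; 134 entries that carried conflicting names were left out. Reads were derived from the bounds, which lie 2 Poisson standard deviations from the FPKM, and cover counting error only. Ratios use log2(FPKM + 1), which understates differences of low genes such as Neat1. A gene was expressed at 1 FPKM in any library and called at 2-fold with separate bounds. The length trend is a running median over 501 genes of at least 300 nt. Genes named from each list are among the 4 with the largest ratios in a comparison; others are the nearest genes by position or by pattern. The members, lists and settings were chosen with earlier results of these data known. Python 3.11.15, numpy 2.4.6, pandas 2.3.3, scipy 1.17.1 and matplotlib 3.10.9 were used. No p-value is given, since each group has 1 library.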

Additional observations from a re-analysis of the deposited data

How the results depend on the processing

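No paired analysis was possible because each genotype has 1 library, and leaving a library out removes its group. Of the 10 alternatives, 4 (no minimum, a minimum of 5 FPKM, the highest entry per gene and the 1.5-fold limit) cannot change a ratio of these RNAs. The other 6 moved 70 of 162 member ratios by more than their counting interval. In SclKO against WT all 9 RNAs were below 0 under each of the 6. In the library labelled Gata12KO against WT, 8 were below 0 as deposited, 5 after median-ratio scaling, 2 when scaled to the summed FPKM of entries of at least 300 nt, 2 after removing the length trend and 0 as TPM. Entries under 300 nt hold 56.5% of the summed FPKM in the library labelled Gata12KO and 72.4% in SclKO. TPM scaling shifted the median of all expressed genes by 0.60 in the library labelled Gata12KO against WT, by 0.72 against SclKO and by −0.11 in SclKO against WT; relative to all genes the 9 then stood at −0.03, 0.31 and −0.42, close to the −0.07, 0.22 and −0.40 as deposited. Scaling over entries of at least 300 nt shifted it by 0.28, 0.15 and 0.13 in the same order, and median-ratio scaling by 0.10 in the first. Against SclKO, TPM put 3 of the 9 past the size limit (Malat1, Gas5 and Snhg8) and a 1.5-fold limit put 1 past it, Gas5; no other setting called any.

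Over all genes, calls are given per 100 of the 11080 expressed genes, higher then lower. In SclKO against WT, 2.12 and 4.24 became 4.29 and 6.71 at a pseudocount of 0.1, 4.54 and 7.08 at 0.01, and 7.89 and 11.3 at 1.5-fold; scaling over entries of at least 300 nt gave 5.78 higher. In the library labelled Gata12KO against WT, 0.767 and 3.75 became 2.07 and 6.44 at 0.1, 2.21 and 6.99 at 0.01, 12.2 and 1.06 as TPM, 1.46 and 1.55 without the length trend, and 4.77 and 13.99 at 1.5-fold. Higher calls were 1.16 after median-ratio scaling, 4.94 over entries of at least 300 nt and 1.597 with the highest entry per gene. Of all calls there, 83.0% were lower as deposited, 8.05% as TPM, 51.5% without the trend, 40.02% over entries of at least 300 nt and 69.7% after median-ratio scaling. Against SclKO, 3.38 and 3.75 became 5.37 and 6.23 at 0.1, 5.59 and 6.56 at 0.01, 19.6 and 1.101 as TPM, and 7.86 and 11.3 at 1.5-fold; scaling over entries of at least 300 nt gave 7.52 higher. There 52.6% of calls were lower as deposited, 5.31% as TPM and 40.7% over entries of at least 300 nt; in SclKO against WT 66.7% were lower as deposited and 51.7% over those entries. The cause was not tested. Counting error is widest for Neat1, with 113 fragments in SclKO, and no RNA of the 9 has a replicate.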
